A study of Mus musculus with 6 samples.

Results

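Genes of vascular endothelial growth factor (Vegf) signalling and of blood endothelial cells were examined in mouse lungs at E16.5 (embryonic day). They were 10 genes chosen by name: the ligands Vegfa, Vegfb and Vegfc, the Vegf receptors Kdr and Flt1, the Tie receptors Tek and Tie1, and the surface genes Cdh5, Pecam1 and Emcn. Every probe set that the array annotation assigned to exactly 1 of these genes was used, 17 of 45037 probe sets in all. All 10 genes had at least 1 probe set, out of 18193 genes that did. The samples were 3 lungs of Hopx -/- embryos, called Hopx-null here, and 3 lungs of Hopx +/+ embryos, called wild-type, all on a mixed strain background. The lungs were microdissected and each was measured on 1 single-channel Affymetrix expression array. Hopx -/- is a germline loss of an atypical homeodomain protein, so any cell of the embryo can be affected, and the labels do not say whether the lungs came from the same litters.

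Vegf ligands are secreted proteins that bind receptor tyrosine kinases on endothelial cells and drive the growth and survival of vessels. In the developing lung Vegfa is made largely by the epithelium, later above all by type I alveolar cells, and it acts on the capillary plexus that grows around the future air sacs. The Tie receptors form a separate signalling system with the angiopoietins, which steadies vessels once they have formed. Hopx itself marks type I alveolar cells and is not an endothelial gene.

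The values are log2 expression values from the authors' robust multi-array averaging (RMA), so a difference of 1 is a doubling, and levels of different probe sets cannot be set against each other. Correlations between arrays lay between 0.989 and 0.995. Hopx, the deleted gene, read 4.71 ± 0.21 in Hopx-null and 10.65 ± 0.28 in wild-type lungs (SD, n = 3 each) at probe set 1451776_s_at. At 1428662_a_at, above the upper quartile on all 6 arrays, Hopx read 10.49 ± 0.15 in Hopx-null and 12.40 ± 0.13 in wild-type lungs (SD, n = 3 each), 3.76-fold lower. These were the 2 that passed limma at an adjusted p under 0.05, which is 0.00444% of all probe sets. As a check of the tissue, the surfactant gene Sftpc, a marker of lung epithelium, read 13.76 ± 0.05 in Hopx-null and 13.76 ± 0.04 in wild-type lungs (SD, n = 3 each). Nkx2-1, a transcription factor of lung epithelium, read 7.57 ± 0.17 in Hopx-null and 7.80 ± 0.02 in wild-type lungs (SD, n = 3 each), without overlap, a difference of -0.23 (limma adjusted p = 0.878). Of the 17 probe sets of the 10 genes, 11 had a mean above the upper quartile of all probe sets. The other 6 lay above the median. Y-linked signal was present in wild-type replicates 2 and 3 and in no Hopx-null lung, and cartilage markers (6 of 6 measured, none below the lower quartile) averaged 4.92 to 6.35 in Hopx-null lungs, against 4.94 to 8.04 in wild-type lungs. The difference between 3' and 5' control probe sets, a sign of RNA quality, was 1.33 to 1.61 in Hopx-null lungs, highest in replicate 3, and 1.29 to 1.42 in wild-type lungs. Y-linked signal and this 3' to 5' difference were each a covariate in alternative fits, reported below. The part of any of these in the main results was not otherwise tested. In whole lungs, fewer cells of a type and less RNA per cell cannot be told apart.

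None of the 17 probe sets passed limma (eBayes, Benjamini-Hochberg over 45037 probe sets), where the smallest adjusted p was 0.878. The median log2 difference, Hopx-null minus wild-type, was 0.10, against 0.01 over all probe sets. Values were on average higher in Hopx-null lungs at 13 of the 17 probe sets and lower at 4, whereas 51.4% of all probe sets were higher. In 1 of 17 the 2 groups did not overlap, a Vegfa probe set that was higher in Hopx-null lungs. Over all probe sets 5.6% were higher without overlap and 4.54% lower, so the members' share lies near the background. The same Vegfa probe set was the 1 of 17 with an unadjusted p under 0.05, which 4.77% of all probe sets had. Every difference was smaller than 0.5 in size, and the 95% interval lay within 1 log2 unit of 0, that is within a doubling or halving, at 16 of the 17. Of all 45037 probe sets, 43708 differed by less than 0.5 and 42625 had such an interval, so these counts also lie near the background.

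**Figure D1:**
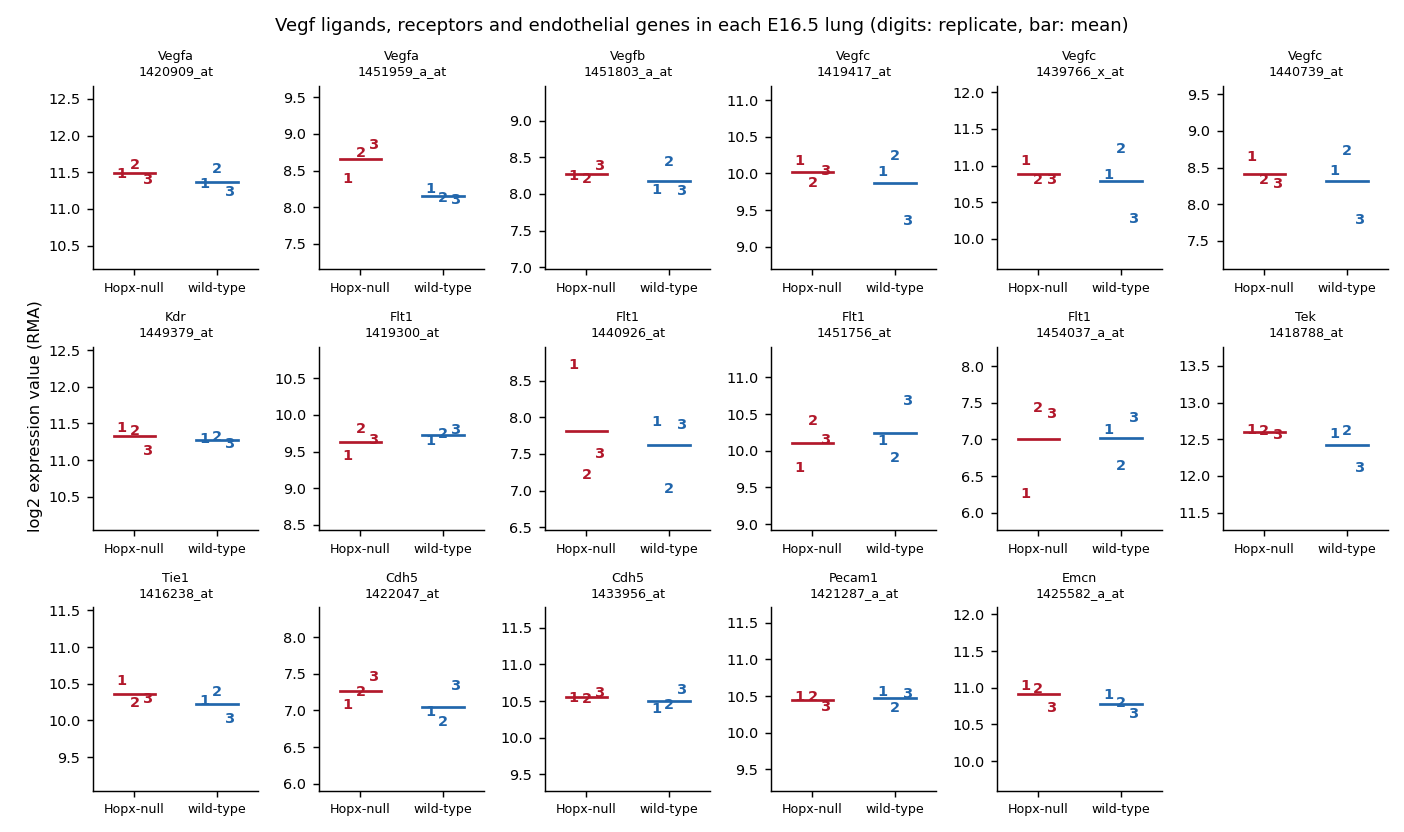
Log2 expression values (y axis, each panel spanning the same number of log2 units) at the 17 probe sets in Hopx-null lungs (red, left) and wild-type lungs (blue, right). Digits are replicate numbers and bars are group means. The groups overlap at every probe set other than 1451959_a_at of Vegfa.

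Vegfa, the main driver of vessel growth, was measured by 2 probe sets, and they differed in how far the genotypes lay apart. At 1451959_a_at it read 8.39, 8.74 and 8.84 in Hopx-null lungs, against 8.25, 8.13 and 8.10 in wild-type lungs. All 3 Hopx-null lungs lay above all 3 wild-type lungs, by 0.50 on the log2 scale (SE 0.13, 95% interval 0.17 to 0.82) or 1.41-fold, and the probe set did not pass (limma, Benjamini-Hochberg adjusted p = 0.878). At 1420909_at Vegfa read 11.48, 11.60 and 11.40 in Hopx-null lungs, against 11.34, 11.54 and 11.23 in wild-type lungs. Here the groups overlapped, with wild-type replicate 2 above Hopx-null replicates 1 and 3, and the difference was 0.12 (SE 0.11, 95% interval -0.15 to 0.39; limma adjusted p = 0.891). This interval bounds the fold between 0.903 and 1.31.

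The gap between both Vegfa probe sets within a lung, 1451959_a_at minus 1420909_at, was -3.09, -2.86 and -2.56 in Hopx-null lungs, against -3.09, -3.41 and -3.13 in wild-type lungs. The groups met at replicate 1 of each genotype. The mean gap differed by 0.37, and a two-sided exact permutation test over the 6 lungs gave p = 0.2, where 0.1 is the smallest possible. Across the 6 lungs the Vegfa probe sets correlated with Pearson r = 0.40 (exact permutation p = 0.407, 0.448 after Benjamini-Hochberg adjustment over 11 pairs of probe sets) and Spearman rho = 0.43 (exact permutation p = 0.419, adjusted 0.461). Without the 2 lungs farthest from the median at 1420909_at r was -0.37. Where in the transcript either probe set lies was not analysed here. The suffix a_at marks a probe set designed to match several transcripts of 1 gene.

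The windows around annotated starts of the ligand Vegfa and of its receptors Kdr and Flt1 are printed to show the sequence from which these transcripts begin, from 250 bases before the start to 50 after it (RefSeq, GRCm38.p6, 5′ to 3′ on the gene's strand). Capitals mark GGAA and its reverse complement TTCC, the core of sites for ETS factors, a family known for its role in endothelial genes. Vegfa is on the minus strand at chr17:46032328-46032627, Kdr on the minus strand at chr5:75978406-75978705 and Flt1 on the minus strand at chr5:147725962-147726261.
Vegfa: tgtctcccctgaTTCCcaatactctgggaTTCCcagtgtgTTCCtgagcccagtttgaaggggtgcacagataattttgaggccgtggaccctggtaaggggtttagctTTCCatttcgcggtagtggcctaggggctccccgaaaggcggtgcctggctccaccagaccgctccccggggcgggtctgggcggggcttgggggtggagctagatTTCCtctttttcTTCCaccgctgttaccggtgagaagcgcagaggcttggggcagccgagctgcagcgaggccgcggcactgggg
Kdr: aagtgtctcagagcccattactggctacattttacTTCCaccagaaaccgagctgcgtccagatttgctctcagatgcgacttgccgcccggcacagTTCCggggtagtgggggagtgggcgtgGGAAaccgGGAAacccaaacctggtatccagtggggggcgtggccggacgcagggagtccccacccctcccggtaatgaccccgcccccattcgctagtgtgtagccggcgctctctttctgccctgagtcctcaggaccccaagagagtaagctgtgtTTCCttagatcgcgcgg
Flt1: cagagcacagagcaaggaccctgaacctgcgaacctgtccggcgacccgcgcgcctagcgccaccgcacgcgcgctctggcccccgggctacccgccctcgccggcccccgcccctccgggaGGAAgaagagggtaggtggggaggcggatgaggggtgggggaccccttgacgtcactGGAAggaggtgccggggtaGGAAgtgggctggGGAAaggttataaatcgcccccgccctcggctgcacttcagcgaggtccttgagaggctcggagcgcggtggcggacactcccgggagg
These windows hold 6, 5 and 4 matches to the ETS core. The core is short, and 96.0% of all 32851 windows in the table hold it. Of the 10 genes, 8 had a window, 9 windows in all, and each held at least 2 matches. The hypoxia response core ACGTG, searched on both strands, was in 1 of these 9 windows and in 19.6% of all windows. The match was in the second window of Vegfa, at chr17:46025114-46025413, which is not printed and lies downstream of the printed one. The printed Vegfa window held 0 matches to it. The Sp1 motif GGGCGG, searched on both strands, was in 6 of the 9 and in 35.7% of all windows. A match is a run of letters, not a measured site.

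Vegfb, a ligand of Flt1, read 8.24, 8.20 and 8.38 in Hopx-null lungs, against 8.05, 8.43 and 8.05 in wild-type lungs. Wild-type replicate 2 was the highest of the 6 lungs and the other wild-type lungs were the lowest. The log2 difference was 0.10 (SE 0.13, 95% interval -0.21 to 0.41; limma adjusted p = 0.916).

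Vegfc, the ligand best known for lymphatic growth, had 3 probe sets that followed one another closely. At 1419417_at it read 10.17, 9.87 and 10.04 in Hopx-null lungs, against 10.02, 10.23 and 9.35 in wild-type lungs. Wild-type replicate 3 was the lowest lung at all 3 probe sets and wild-type replicate 2 the highest, so the wild-type lungs spanned the Hopx-null ones. The log2 differences were 0.16, 0.10 and 0.10 (limma adjusted p = 0.924, 0.955 and 0.959). Without wild-type replicate 3 they were -0.10, -0.16 and -0.17, the opposite sign. Pearson r between pairs of these probe sets was 0.96 to 0.99 over 6 lungs (exact permutation, adjusted p = 0.0306, 0.0306 and 0.0153 over 11 pairs), with Spearman rho of 0.83, 0.83 and 1 (exact permutation, adjusted p = 0.128, 0.128 and 0.0306). Without the 2 lungs farthest from the median at the first probe set of each pair r was 0.82, 0.74 and 0.98. Lymphatic endothelial markers (5 of 6 measured, none below the lower quartile) ran the other way in wild-type replicate 3, with a mean of 9.55 there, 8.90 to 9.09 in Hopx-null lungs and 8.93 and 8.97 in the other wild-type lungs.

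**Figure D2:**
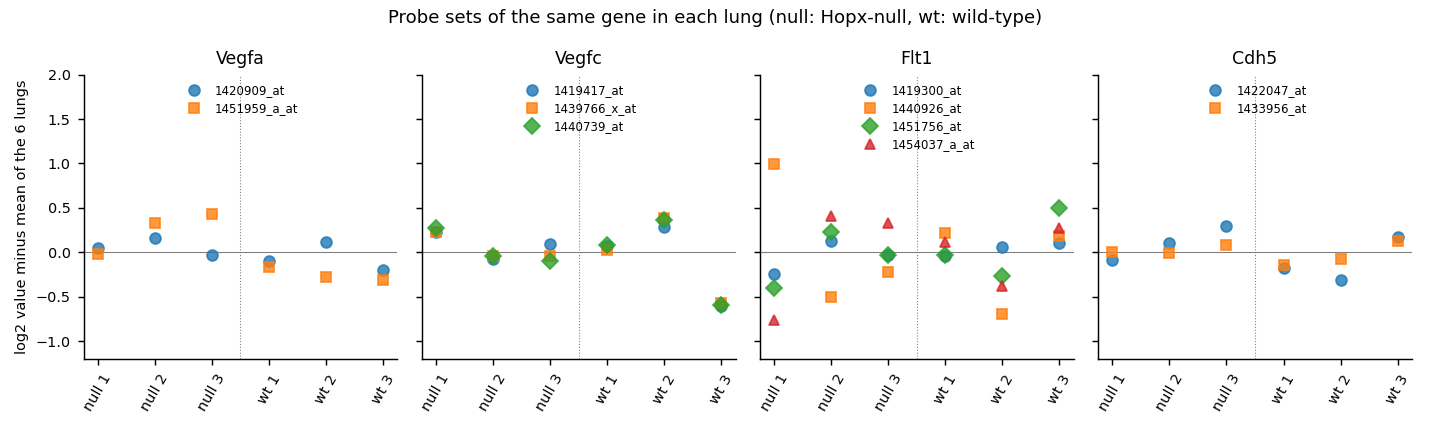
Log2 value minus the mean of the 6 lungs (y axis) for genes with more than 1 probe set, by lung (x axis, Hopx-null left of the dotted line, wild-type right). Symbols are probe sets. The 3 of Vegfc move together, those of Vegfa separate most in Hopx-null replicate 3 and wild-type replicate 2, and 1440926_at of Flt1 runs against the others in Hopx-null replicate 1.

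Kdr, also called Vegfr2, is the receptor that carries most of the Vegfa signal in blood vessels. It read 11.44, 11.40 and 11.13 in Hopx-null lungs, against 11.28, 11.31 and 11.23 in wild-type lungs. The wild-type lungs lay inside the Hopx-null range. The difference was 0.05 (SE 0.11, 95% interval -0.21 to 0.31; limma adjusted p = 0.948), which bounds the fold between 0.867 and 1.24. Kdr lies near Hopx on chromosome 5, with 14 protein-coding genes between them in the RefSeq gene order of GRCm38.p6. Of the 13 measured genes in between, 6 were higher and 7 lower in Hopx-null lungs, with a median difference of -0.03, and 0 passed limma. Flt1 is on the same chromosome, with 788 protein-coding genes between it and Hopx.

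Flt1, also called Vegfr1, binds Vegfa tightly and is known for holding it back from Kdr, in part as a secreted form. Its 4 probe sets gave log2 differences of -0.09, 0.18, -0.14 and -0.01, in the order 1419300_at, 1440926_at, 1451756_at and 1454037_a_at (limma adjusted p = 0.911, 0.954, 0.937 and 0.998). At 1419300_at, the one with the smallest SE (0.12), Flt1 read 9.44, 9.81 and 9.66 in Hopx-null lungs, against 9.65, 9.75 and 9.79 in wild-type lungs. At 1451756_at it read 9.77, 10.40 and 10.14 in Hopx-null lungs, against 10.14, 9.90 and 10.67 in wild-type lungs. Hopx-null replicate 1 was the lowest lung at these probe sets and at 1454037_a_at, where it read 6.26 and the others 6.64 to 7.43. At 1440926_at the same lung was the highest, at 8.71, with 7.21 and 7.50 in the other Hopx-null lungs, against 7.94, 7.03 and 7.90 in wild-type lungs. Pearson r over the 6 lungs ranged from -0.80 to 0.81 over the 6 pairs of Flt1 probe sets, and none passed the adjustment over 11 pairs (exact permutation, smallest adjusted p = 0.0891). Lung-to-lung spread at 1440926_at (SD 0.79 in Hopx-null and 0.51 in wild-type lungs, n = 3 each) left a 95% interval of -0.83 to 1.20, the widest of the 17.

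**Figure D3:**
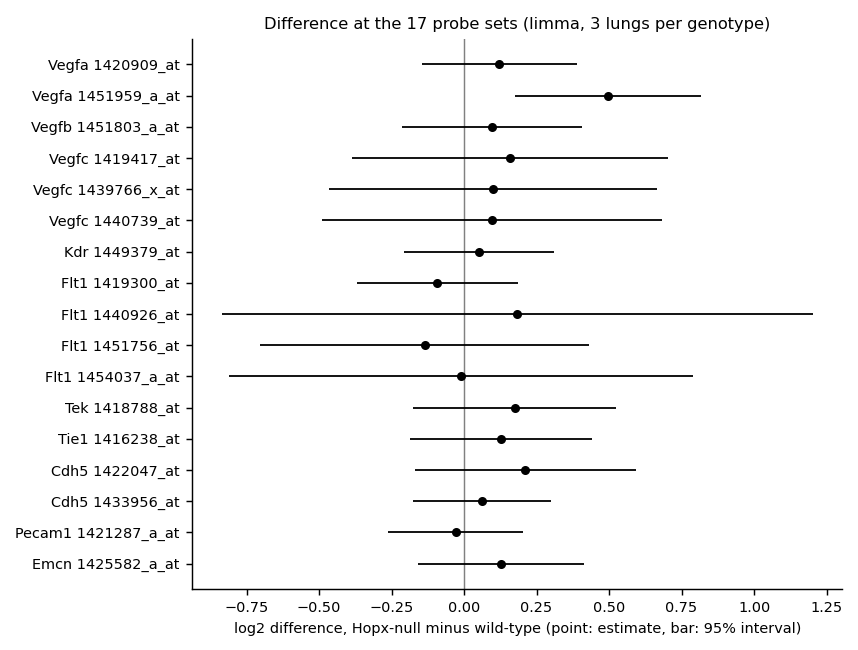
Log2 difference, Hopx-null minus wild-type (x axis), with its 95% interval from limma (bars) for each of the 17 probe sets. Points lie between -0.14 and 0.50, and the interval of 1451959_a_at of Vegfa, 0.17 to 0.82, lies above 0 without passing after adjustment.

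Tek, also called Tie2, is the angiopoietin receptor, and Tie1 is its partner without a well-established ligand of its own. Tek read 12.63, 12.62 and 12.56 in Hopx-null lungs, against 12.57, 12.61 and 12.11 in wild-type lungs. Only wild-type replicate 3 stood away from the others. The Tek difference was 0.17 (SE 0.15, 95% interval -0.17 to 0.52; limma adjusted p = 0.886), and 0.01 without wild-type replicate 3. Tie1 read 10.53, 10.24 and 10.29 in Hopx-null lungs, against 10.26, 10.39 and 10.02 in wild-type lungs, again lowest in wild-type replicate 3. Its difference was 0.13 (SE 0.13, 95% interval -0.19 to 0.44; limma adjusted p = 0.898).

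The junction gene Cdh5, VE-cadherin, which joins endothelial cells to each other, had 2 probe sets. At 1433956_at it read 10.54, 10.52 and 10.61 in Hopx-null lungs, against 10.39, 10.45 and 10.65 in wild-type lungs. At 1422047_at it read 7.07, 7.26 and 7.46 in Hopx-null lungs, against 6.98, 6.84 and 7.33 in wild-type lungs. Replicate 3 was the highest of its genotype at both. The differences were 0.06 and 0.21 (limma adjusted p = 0.933 and 0.879).

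Pecam1, an adhesion molecule of endothelial cells that platelets and leukocytes also carry, read 10.49, 10.48 and 10.36 in Hopx-null lungs, against 10.55, 10.34 and 10.53 in wild-type lungs. Both groups covered nearly the same range. Its difference of -0.03 had the narrowest 95% interval of the 17, from -0.26 to 0.20 (limma adjusted p = 0.971), or a fold between 0.835 and 1.15. Emcn, endomucin, a sialomucin of capillary and venous endothelium, read 11.03, 10.98 and 10.72 in Hopx-null lungs, against 10.90, 10.80 and 10.64 in wild-type lungs. The groups overlapped through Hopx-null replicate 3, and the difference was 0.13 (SE 0.12, 95% interval -0.16 to 0.41; limma adjusted p = 0.891).

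Wild-type replicate 3 was the lowest of the 6 lungs at 9 of the 17 probe sets, whereas it was the lowest at 22.2% of all probe sets. Type I alveolar markers (6 of 6 measured, none below the lower quartile) averaged 12.06 to 12.13 in Hopx-null lungs, against 12.15 and 12.10 in wild-type replicates 1 and 2 and 11.58 in wild-type replicate 3. Without that lung the median difference over the 17 probe sets was 0.03, against 0.10 with it. Hopx-null replicate 1 was the highest lung at 5 probe sets, among them Kdr, Tek, Tie1 and Emcn.

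Genes that Vegf is known to induce in endothelial cells were described as a list of 10, all measured, each by its probe set with the highest mean. None passed limma (Benjamini-Hochberg), whereas 0.0055% of all genes did when each was represented in this way. Of the 10, 7 were higher and 3 lower in Hopx-null lungs, and the median difference was 0.14, against 0.01 over 18193 genes. The mean of the list was 8.67, 8.58 and 8.43 in Hopx-null lungs, against 8.35, 8.25 and 8.24 in wild-type lungs. Wild-type replicate 3 was lowest in this mean through Esm1, which read 5.12 there and 6.73 to 8.23 in the other lungs. Over the rest of the list the mean of wild-type replicate 3 lay above that of Hopx-null replicate 3, so the groups overlapped. In 3 of the 10 the Hopx-null lungs all lay above the wild-type lungs, namely Nr4a1, Dll4 and Unc5b, and in none below, whereas 6.21% of all genes were higher and 4.31% lower without overlap.

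Nr4a1, an orphan nuclear receptor that responds to many signals within the first hours, read 8.29, 8.76 and 8.20 in Hopx-null lungs, against 7.33, 7.24 and 7.88 in wild-type lungs. The difference was 0.93 (SE 0.22; limma adjusted p = 0.878), or 1.90-fold. Dll4, the Notch ligand of endothelial tip cells, read 7.64, 7.64 and 7.69 in Hopx-null lungs, against 7.46, 7.12 and 7.25 in wild-type lungs, a difference of 0.38 (SE 0.11; limma adjusted p = 0.878). A second Dll4 probe set differed by 0.25, also without overlap. Esm1, a secreted proteoglycan of tip cells, had the largest difference of the list, 1.30 (SE 0.61; limma adjusted p = 0.878), with 7.56, 8.23 and 7.67 in Hopx-null lungs, against 7.71, 6.73 and 5.12 in wild-type lungs. Wild-type replicate 1 lay within the Hopx-null range, and wild-type replicate 3 was far below every other lung. Without wild-type replicate 3 the Esm1 difference was 0.60. With Y-linked signal as a covariate, which in effect sets the Hopx-null lungs against wild-type replicate 1, it was 0.11, and that of Dll4 was 0.19. Unc5b, a netrin receptor of vessel sprouts, differed by 0.27 at 1435110_at (0.10 with that covariate) and 0.25 at a second probe set where the groups overlapped. Egr3 differed by -0.28 and Cxcr4 by -0.08.

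**Figure D4:**
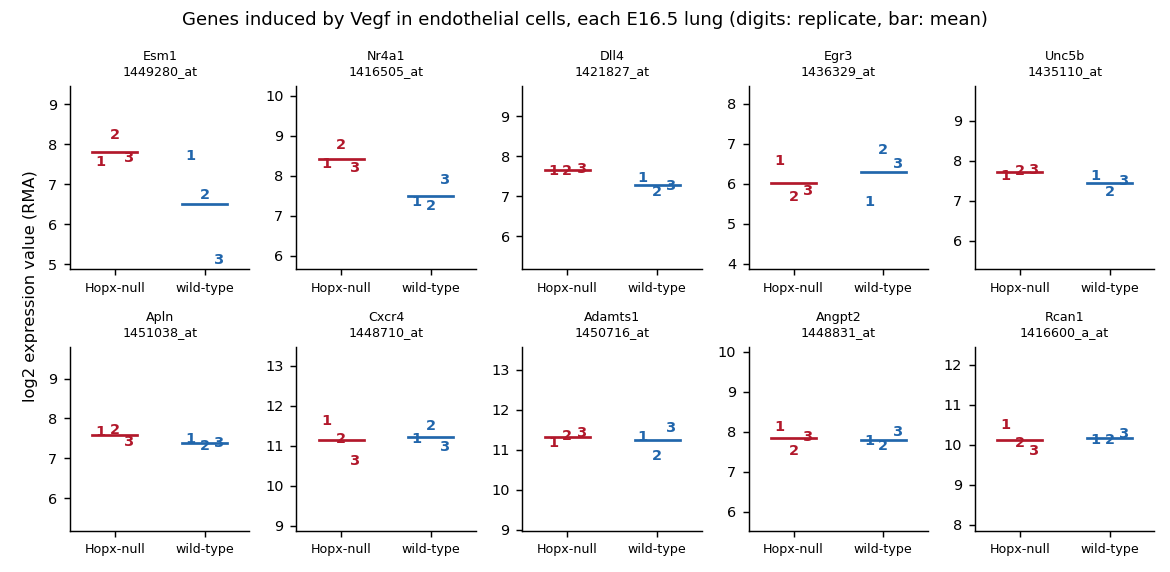
Log2 expression values (y axis, each panel spanning the same number of log2 units) of 10 genes known to be induced by Vegf, in Hopx-null lungs (red, left) and wild-type lungs (blue, right). Digits are replicate numbers and bars are means. Nr4a1, Dll4 and Unc5b do not overlap between genotypes, and none of the 10 passed limma.

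The other Vegf pathway genes did not share a direction. The list held 11 measured ligands, receptors, co-receptors and transducers, each by its probe set with the highest mean. Of these, 4 were higher and 7 lower in Hopx-null lungs, with a median difference of -0.01 and none passing limma. Nos3, the endothelial nitric oxide synthase, differed by -0.54 (SE 0.20), the Flt1 ligand Pgf by -0.29 (SE 0.11) and the kinase Prkca by -0.25 (SE 0.29), each with limma adjusted p of at least 0.878. Without wild-type replicate 3 the Prkca difference was 0.04. Pgf was the 1 of the 11 without overlap, where 4.31% of all genes were lower without overlap, and read 7.88, 7.82 and 7.60 in Hopx-null lungs, against 8.19, 8.01 and 7.98 in wild-type lungs. Angiopoietins, the Tie2 phosphatase Ptprb and Svep1, 5 genes, had a median difference of -0.02. The largest in size were -0.04 for Angpt1, -0.04 for Angpt4 and 0.04 for Angpt2, which is also on the Vegf-induced list.

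Of 27 further pan-endothelial markers, 15 were higher and 12 lower, with a median difference of 0.00, and none passed limma. The 5 without overlap were all higher in Hopx-null lungs: Myct1, Vwf, Cldn5, Egfl7 and Erg. Of all genes, 6.21% were higher and 4.31% lower without overlap. The tight junction gene Cldn5 read 11.88, 11.99 and 11.89 in Hopx-null lungs, against 11.69, 11.67 and 11.46 in wild-type lungs, a difference of 0.31 (SE 0.10; limma adjusted p = 0.878). Myct1 differed by 0.36 and Vwf, the von Willebrand factor of endothelium and platelets, by 0.35. At the other Myct1 probe sets the differences were 0.37, 0.17 and 0.15, and the groups overlapped. Egfl7 differed by 0.10 and Erg by 0.09. Of 8 lung capillary markers, 7 were higher and 1 lower, with a median of 0.09, and Fibin at -0.41, Plvap at 0.31 and Aplnr at 0.22 differed most. Fibin was the 1 of the 8 without overlap, and it was lower in Hopx-null lungs. With the Y-linked covariate the Plvap difference was -0.05. Of 8 arterial and venous genes 5 were higher, with a median of 0.05, and Slc6a2 at 0.36, Hey1 at 0.15 and Gja4 at -0.10 differed most. Without Hopx-null replicate 3 the Slc6a2 difference was -0.17.

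Cells that touch or travel in vessels gave small medians as well, and no gene of these lists passed limma. Pericyte markers had a median difference of -0.06 (3 of 9 higher, with Cox4i2 at 0.23, Abcc9 at -0.20 and Higd1b at -0.18). The pericyte marker Rgs5 differed by -0.03 at its probe set with the highest mean. At its other probe sets it differed by -1.12 (SE 0.39, limma adjusted p = 0.878), 0.37 and -0.07. Where it differed by -1.12 the Hopx-null lungs all lay below the wild-type lungs, and elsewhere the groups overlapped. Lymphatic markers had a median of -0.10 (0 of 5 higher, with Stab2 at -0.54, Prox1 at -0.11 and Mmrn1 at -0.10). Stab2 read 7.52 in wild-type replicate 3, above the 5.77 to 6.21 of the other 5 lungs. Without that lung the Stab2 difference was -0.07, that of Mmrn1 0.07 and the list median -0.00072. Platelet markers had a median of -0.11 (0 of 6 higher, with Gp9 at -0.21, Treml1 at -0.18 and Ppbp at -0.12). Leukocyte markers had a median of 0.08 (6 of 9 higher, with C1qa at -0.30, C1qb at -0.29 and Csf1r at 0.18). Erythroid markers had a median of 0.02 (5 of 9 higher). The embryonic globins Hbb-y and Hba-x differed by 1.17 (SE 0.79) and 0.70 (SE 0.64), and the groups overlapped at both. Hopx-null replicate 1 read 5.97 for Hbb-y, below wild-type replicates 2 and 3 at 7.13 and 7.04. For Hba-x that lung was the lowest, at 4.63. Slc4a1 differed by -0.43 (SE 0.22), and the globin Hbb-bh1 averaged below the lower quartile. Markers of type I alveolar cells, a known source of Vegfa, had a median of 0.16 (5 of 6 higher), with Akap5 at 0.41, Pdpn at 0.21 and Aqp5 at 0.18. Akap5 and Pdpn were lowest in wild-type replicate 3, without which they differed by -0.10 and -0.07 and the list median was -0.05.

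Hypoxia-inducible factors and their targets were listed because Vegfa is itself such a target. Of 17 genes 5 were higher and 12 lower in Hopx-null lungs, with a median of -0.08, and none passed limma. Hif3a differed by -0.73 (SE 0.56), the vasodilator peptide Adm by -0.56 (SE 0.46) and Ndrg1 by -0.31 (SE 0.23), each with its highest value in wild-type replicate 3. Without that lung they differed by -0.32, -0.11 and -0.05. The list mean was 10.47 to 10.69 in Hopx-null lungs, against 10.50 to 10.85 in wild-type lungs. Cardiac muscle markers had a median of 0.15, with Nppa at -0.67, Myl2 at 0.63 and Tnni3 at 0.29. Cartilage markers had a median of -1.56, with Acan at -1.71, Col9a3 at -1.66 and Col9a1 at -1.56. Which tissue these transcripts came from was not tested. Nppa read 9.47 in wild-type replicate 3, against 5.71 to 6.78 in the other 5 lungs, and differed by 0.56 without it. The medians without that lung were 0.36 for cardiac and -0.67 for cartilage markers.

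**Figure D5:**
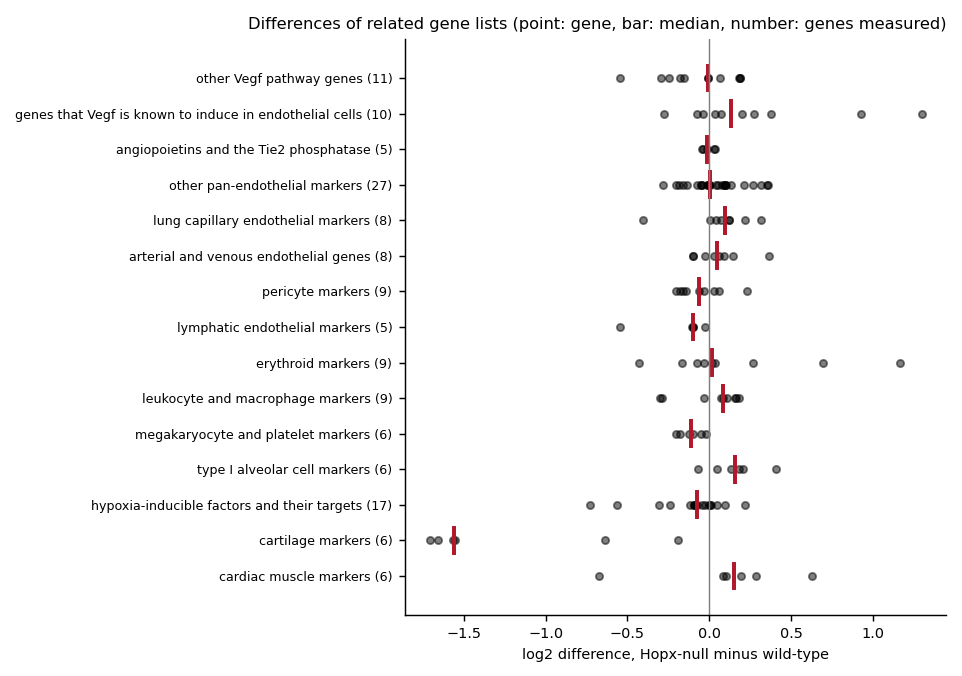
Log2 difference, Hopx-null minus wild-type (x axis), of each gene (points) in 15 related lists (rows, with the number of genes measured), and the list median (red bars). Medians lie between -0.11 and 0.16 in all lists other than cartilage, at -1.56.

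The genes whose values over the 6 lungs were most like those of Vegfa at 1420909_at were Pdzd4, Brk1, Nek4, E2f1 and Myo6, with Pearson r of 0.99, 0.98, 0.98, 0.98 and 0.98. They were taken as the highest of 11024 genes with a mean above the median, of which 20 exceeded 0.95, so the values describe these lungs and carry no test. The mean profile of the 7 blood endothelial genes, each centred on its own mean, lay between -0.04 and 0.08 in all lungs. Apln, Eif4g3, Rtn4ip1, Cetn3 and Efnb2 were most like it, with r of 0.98, 0.97, 0.97, 0.97 and 0.96. Apln, a peptide ligand of endothelial tip cells that is also on the Vegf-induced list, read 7.65, 7.70 and 7.41 in Hopx-null lungs, against 7.49, 7.30 and 7.38 in wild-type lungs. Its difference was 0.20 (SE 0.11; limma adjusted p = 0.878), and Efnb2, an arterial ephrin, differed by 0.09.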

How the data were processed

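RNA of 6 microdissected lungs was measured on 1 array each. The authors' deposited table holds values taken here as log2, a base that no header gives and that follows from their size and from RMA. The submitters' processing notes list RMA and Partek 6.6 without roles. RMA makes the arrays' distributions equal, which hides a general shift. Per the labels' protocols, poly(T) priming favours 3' ends. The number of arrays limits the precision.

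From 45101 probe sets 64 controls were removed. In the platform annotation 34945 had 1 gene, 932 several and 9160 none. limma 3.58.1 (R 4.3.3; lmFit, eBayes, Benjamini-Hochberg over 45037 probe sets, threshold 0.05) compared the genotypes, and permutations ran in Python 3.11.15. The procedure was tested on simulated data. The members and the 15 lists (142 of 145 entries measured) were chosen with earlier results of these data known and got no test of their own. Besides Hopx and the members, the 3 genes of largest difference per list and the 5 most like Vegfa and the endothelial mean were named by rule. Other genes named because their groups did not overlap, the rest of the Vegf-induced list, Sftpc and Nkx2-1 were chosen after their values were seen. Alternatives covered scaling, dim probe sets, variance models, weights, covariates (the Y-linked one from 3 genes, without Ddx3y), a replicate block, probe set choice and each lung left out. The labels do not name litters, so p-values measure the spread between these samples, called biological replicates.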

Additional observations from a re-analysis of the deposited data

How the results depend on the processing

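No probe set of the 10 genes passed limma under any alternative, and the smallest adjusted p was 0.375, for Vegfa at 1451959_a_at without Hopx-null replicate 1 (limma, Benjamini-Hochberg). There the difference stayed between 0.40 and 0.63 over all alternatives (limma adjusted p 0.375 to 1.00), with an unadjusted limma p of 0.0919 with the Y-linked covariate and below 0.05 otherwise. The median over the members ranged from 0.03 (Y-linked covariate) to 0.15, and 0.03 to 0.15 leaving out 1 lung. With 1 probe set a gene, 8 of 10 were higher, and leaving out 1 lung 12 to 15 of 17 were. With the Y-linked covariate 11 of 17 were higher. Of 298 alternative values at single probe sets 21 had the other sign, at 10 of the 17 probe sets, among them all of Vegfc and Flt1. Probe sets called over the whole array were 1 with the replicate block, the 3' bias covariate, no x_at or s_at probe sets, or 1 probe set a gene. Leaving out x_at and s_at probe sets, or keeping 1 a gene, removed Hopx 1451776_s_at by design. Leaving out 1 lung gave 1 to 23, with 23 when wild-type replicate 1 was left out and 12 when Hopx-null replicate 1 was. For the other settings the cause was not tested beyond fewer samples. Same-numbered lungs had deviations correlated at -0.10, -0.12 and 0.18, so the numbers were not taken as pairs, and the replicate block left 0 members called. Of 270 list medians 27 had the other sign, and the cartilage median ranged from -2.76 to 0.50 (Y-linked covariate). Of 1121 alternative values at 63 other named probe sets 47 had the other sign, and none passed limma.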
